A study of Mus musculus with 24 samples.

Results

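The 8 genes described here encode plasma membrane carriers of amino acids or taurine: Slc6a6, Slc7a5, Slc3a2, Slc7a1, Slc38a1, Slc38a2, Slc1a5 and Slc1a4. They were 8 of 26995 gene symbols in count tables of 91830 3′UTR entries, and each gene was represented by the entry of its symbol with the highest mean total count over 24 libraries. The group was chosen from earlier results of these data, in which Slc6a6 fell with ML-792 at day 1 in labelled reads. The other 7 genes were chosen by name as carriers of the same kind. The day 1 values of Slc6a6 with and without ML-792 are therefore given as a description, with no test, and Slc6a6 was set aside from the counts of every comparison that uses its day 1 libraries.

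The libraries came from 3T3-L1 cells, an established mouse fibroblast line that turns into adipocytes when induced. Cells received DMSO, the vehicle, or 0.5 µM ML-792, a small-molecule inhibitor of the SUMO-activating enzyme, which starts the attachment of the small protein SUMO to other proteins. Both treatments were sampled at day -2, before induction, and at days 1, 3 and 7 of adipogenic induction with dexamethasone, 3-isobutyl-1-methylxanthine and insulin, where the medium from day 3 on held insulin alone of the 3 agents, and each of the 8 conditions had 3 biological replicates, lettered A, B and C. All cells were given 100 µM 4-thiouridine for 45 min before harvest, so that each library yielded total reads and labelled reads, which carried at least 1 T-to-C conversion and represent newly made RNA.

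Cells cannot make several amino acids and depend on carriers for them. Slc7a5 (LAT1) exchanges large neutral amino acids such as leucine and works as a heterodimer with the glycoprotein Slc3a2 (4F2hc, CD98), which brings it to the membrane. Slc7a1 (CAT1) carries arginine and lysine, and Slc38a1 (SNAT1) and Slc38a2 (SNAT2) take up small neutral amino acids together with sodium. Slc1a5 (ASCT2) and Slc1a4 (ASCT1) exchange neutral amino acids such as serine and alanine, and Slc1a5 also glutamine. Slc6a6 (TauT) takes up taurine, a sulfonic acid made from cysteine that acts as an osmolyte and is conjugated to bile acids in liver. Several of these carriers are textbook targets of the amino acid response, in which the transcription factor ATF4 induces uptake and synthesis genes when amino acids run short.

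Each of the 8 entries was a 3′UTR in the last exon of its gene, directly after the stop codon, and no other annotated gene overlapped any of them (mm10). They lay at chr6:91755058-91759063 for Slc6a6 on the plus strand, chr8:121881146-121883039 for Slc7a5 on the minus strand and chr19:8706882-8707722 for Slc3a2 on the minus strand. Slc7a1 lay at chr5:148327410-148332439, Slc38a1 at chr15:96571418-96576710 and Slc38a2 at chr15:96687392-96690126, all on the minus strand. Slc1a5 lay at chr7:16797740-16798274 on the plus strand and Slc1a4 at chr11:20302180-20304265 on the minus strand. A shorter second entry existed for Slc3a2 and for Slc1a5 and held nearly the same reads, so it was not counted again.

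The libraries held 13554718 to 27013352 total reads and 115709 to 820046 labelled reads. Over days -2, 1, 3 and 7, the mean labelled share of all reads ran 3.17%, 1.27%, 1.03% and 1.03% in DMSO and 2.83%, 1.06%, 0.958% and 0.837% with ML-792. All 8 genes passed the low-count filter in total reads, and 7 did so in labelled reads, where Slc38a1 did not pass. The summed level of 8 adipocyte markers lay between 22645 and 24224 at day -2 and between 655372 and 737388 at day 7 in DMSO, and between 23109 and 26616 and between 865366 and 929869 with ML-792. With ML-792 against DMSO they summed to 35165 to 41080 against 41671 to 44859 at day 1 and 421173 to 485115 against 368545 to 516685 at day 3. The 8 pre-adipocyte or fibroblast markers summed to 195668 to 246230 at day -2 in DMSO and 171254 to 251909 with ML-792. At day 1 they summed to 94200 to 143881 with ML-792 and 123698 to 130817 in DMSO. In the same order, the sums were 25352 to 31173 and 12850 to 15017 at day 3. At day 7 they were 20797 to 26726 and 13133 to 19657. At days 3 and 7 the sums were thus higher with ML-792, without overlap. Col1a1 was their largest part, with means of 17546.5 against 7243 at day 3 and 19821 against 11873 at day 7. Pdgfra, Thy1 and Ly6a also had higher means with ML-792 at both days. Dlk1 had lower ones (2525 against 3570 and 1483 against 3109). Means of Cd44, Pdgfrb and Cd34 were lower with ML-792 at day 3 and higher at day 7. Markers of blood, endothelial and epithelial cells summed to mean levels of at most 118, 13.6 and 35.8 in any condition. The part of these marker levels in the results below, those of ML-792 at days 3 and 7 included, was not tested, and in these bulk samples fewer cells of a type and less RNA per cell cannot be told apart. One set of libraries stood apart for Slc3a2: in all 8 conditions replicate B held 0.226 to 0.425 times the mean of A and C. Of 13331 genes, 12 had less than 0.5 times the reads of both other replicates in replicate B of every condition, and no gene did so for A or for C.

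Levels are given as normalised reads, which are reads scaled to the average library size, for replicates A, B and C in that order, and means with their SD (n = 3). Fold changes are log2 values ± SE from edgeR's quasi-likelihood test, with Benjamini-Hochberg adjusted p over 26558 or 26563 entries for total reads and 10589 for labelled reads. A gene was called when the adjusted p was under 0.01 for changes over time and under 0.1 for ML-792 against DMSO. Levels were not compared between genes. Libraries without overlap were common. In total reads, ML-792 and DMSO did not overlap for 5.63%, 19.3%, 22.3% and 24.3% of all entries at days -2, 1, 3 and 7. In labelled reads at day 1 the share was 14.8%. Against day -2, the shares in total reads at days 1, 3 and 7 were 38.9%, 51.3% and 55.1% in DMSO. With ML-792 they were 45.3%, 56.8% and 56.1%.

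**Figure D1:**
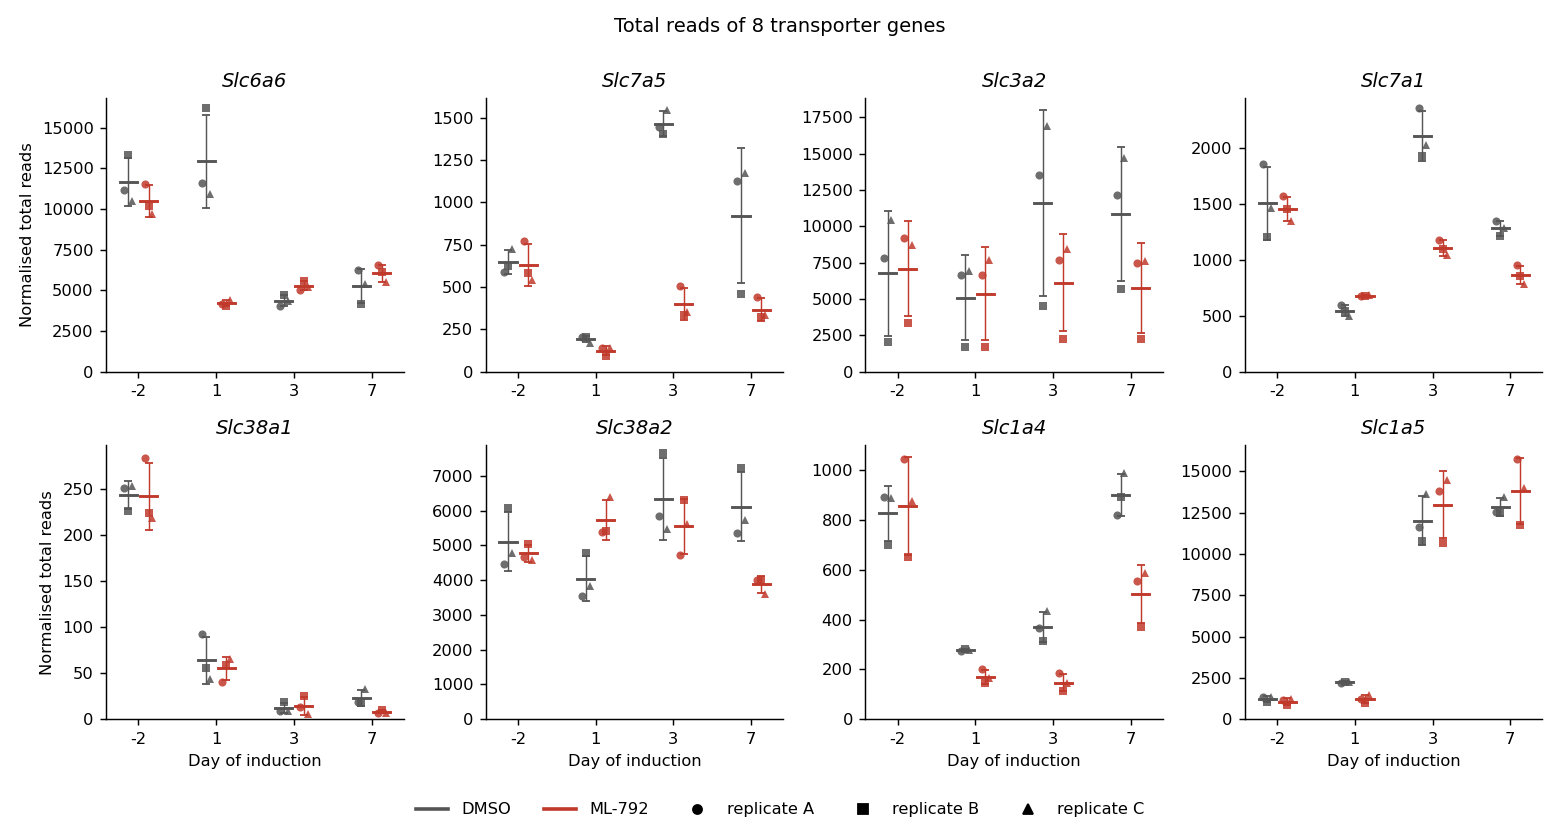
Total reads of the 8 genes in 24 libraries. The x axis gives the day, the y axis the level in normalised reads on a linear scale that starts at 0 in each panel, points are single libraries (grey DMSO, red ML-792, shapes for replicates A, B and C), and horizontal and vertical bars give the mean and SD of 3. Slc1a5 stood at 1237 in DMSO at day -2 and 12811 at day 7, Slc38a1 at 243 and 23.3, and Slc6a6 was at 12919 in DMSO but 4210 with ML-792 at day 1.

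The taurine carrier Slc6a6 was high in pre-adipocytes and one day after induction in DMSO and low from day 3 on. Its DMSO libraries held 11165, 13305 and 10518 normalised reads at day -2 and 11583, 16228 and 10946 at day 1. At day 3 they held 4009, 4716 and 4356, and at day 7 6268, 4172 and 5410.4. Every library of days -2 and 1 lay above every library of days 3 and 7. The day 1 libraries overlapped those of day -2. Against day -2, Slc6a6 fell by day 3 (log2 fold change -1.42 ± 0.20, adjusted p = 3.5e-05) and stayed lower at day 7 (-1.14 ± 0.20, adjusted p = 0.00023).

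With ML-792 the low level was seen already at day 1. Libraries with the inhibitor held 11558, 10202 and 9689 normalised reads at day -2 and 4160.2, 4036 and 4432 at day 1. Later they held 5031, 5584 and 5223 at day 3 and, in the last samples, 6566, 6097 and 5523 at day 7. At day 1 all 3 ML-792 libraries lay below all 3 DMSO libraries, 3.07-fold lower in total reads, which belongs to the difference that chose the group. Against day -2 of the ML-792 course, the day 3 value was -0.99 ± 0.13 (adjusted p = 2.5e-05) and the day 7 value -0.79 ± 0.13 (adjusted p = 0.00018), which missed the threshold without replicate A (adjusted p = 0.012). From day 3 on, ML-792 and DMSO were close: the day 3 difference was 0.28 ± 0.16 (adjusted p = 0.39) and the day 7 difference 0.20 ± 0.16 (adjusted p = 0.6), and neither was called. In order of mean level, DMSO day 1, DMSO day -2 and ML-792 day -2 came first, then ML-792 day 7, DMSO day 7 and ML-792 day 3, and last DMSO day 3 and ML-792 day 1. Neighbours in this order overlapped, except ML-792 day -2 with ML-792 day 7 and ML-792 day 3 with DMSO day 3, although DMSO day 7 overlapped both of the last conditions through its replicate B. The highest mean was 3.07 times the lowest.

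Labelled reads of Slc6a6 are given on the same normalised scale. Before induction they numbered 757, 571 and 525 in DMSO and 536, 425 and 339 with ML-792. At day 1 they numbered 227, 418 and 279 in DMSO and 66.3, 75.6 and 68.1 with ML-792. Day 3 libraries held 90.8, 45.2 and 55.5 in DMSO and 60.9, 67.1 and 57.3 with ML-792, and day 7 libraries 47.4, 39.6 and 44.5 and 77.4, 79.8 and 54.6, in the same order. At day 1 every ML-792 library again lay below every DMSO library, with a fitted log2 fold change of -2.14, and this is the value the group was chosen on. Because the labelled share of all RNA fell after day -2, the median labelled fold change of all entries was -1.27, -1.70 and -1.54 at days 1, 3 and 7 of the DMSO course and -1.41, -1.60 and -1.78 with ML-792, and changes over time are set against it. Relative to that median, labelled Slc6a6 in DMSO stood at 0.26 on day 1, -1.57 on day 3 and -2.28 on day 7. Scaled by total reads and not set against the median, the falls to day 3 and to day 7 were called (-3.27 ± 0.36 and -3.81 ± 0.37, adjusted p = 2e-10 and 3.6e-12). Scaled by labelled reads, they were -1.86 and -2.49 and were called as well (adjusted p = 1.7e-05 and 1e-07). The share of Slc6a6 reads that were labelled went from 5.35 ± 1.28% at day -2 to 2.36 ± 0.347%, 1.50 ± 0.682% and 0.843 ± 0.0985% in DMSO, and from 4.10 ± 0.576% to 1.67 ± 0.180%, 1.17 ± 0.0635% and 1.16 ± 0.161% with ML-792. The background of the conversion calls was not measured, since no library without 4-thiouridine was used. The lowest 1% of entries with at least 1000 reads had labelled shares of at most 0% to 0.332%, depending on the library. These limits were higher at day -2 than later, so they are not a fixed error rate.

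**Figure D2:**
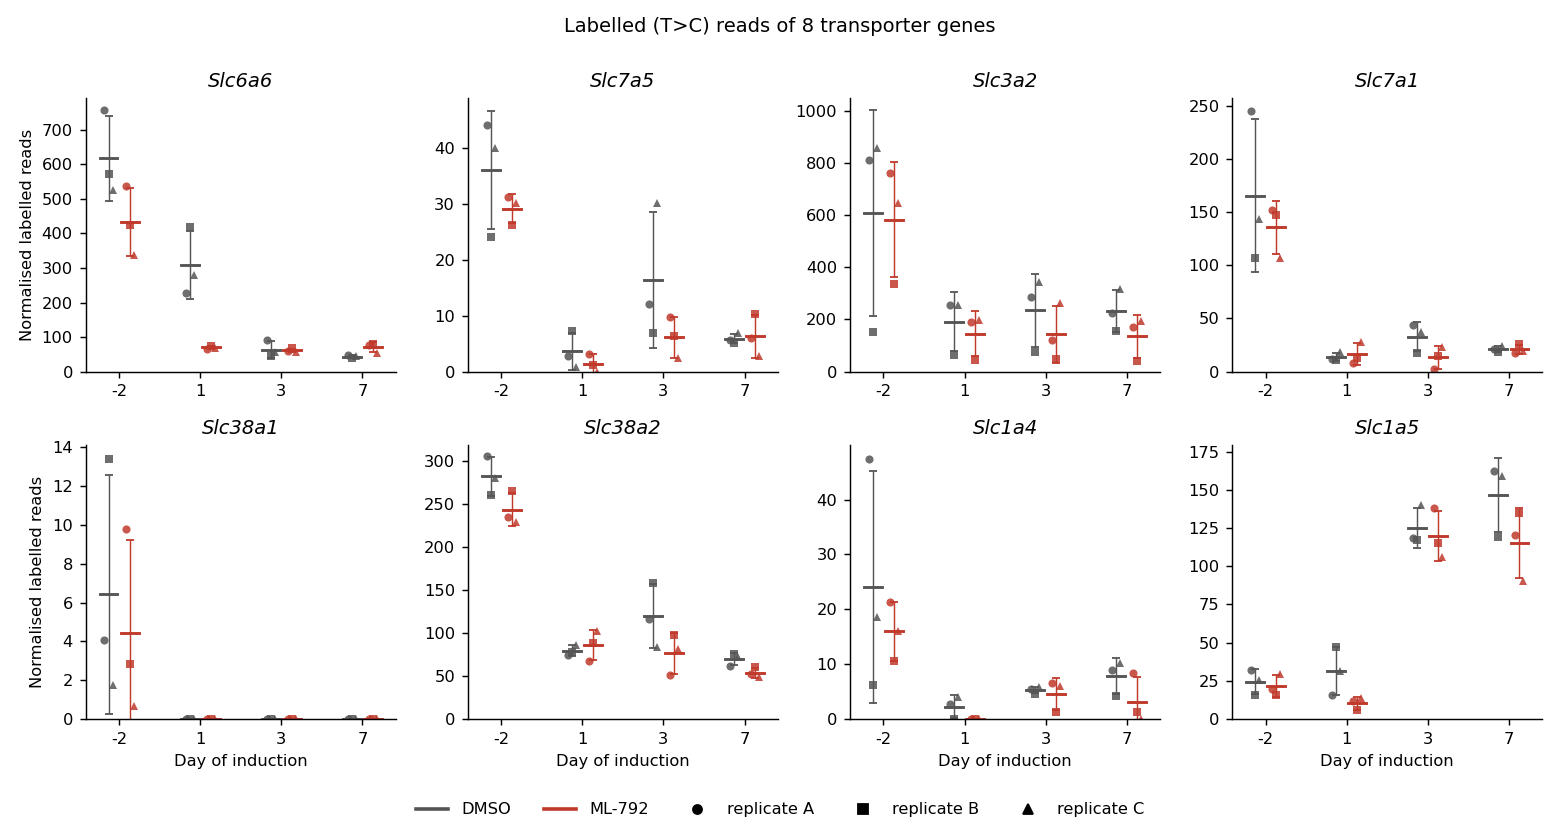
Labelled reads of the 8 genes in 24 libraries. The x axis gives the day, the y axis labelled reads in normalised reads from 0, with single libraries as points (grey DMSO, red ML-792, shapes for replicates) and the mean and SD of 3 as bars. Labelled Slc6a6 had means of 308 in DMSO and 70.0 with ML-792 at day 1, and Slc1a5 was the panel in which both treatments ended higher than they began.

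The genes around taurine moved in both directions. Of the 12 genes of taurine synthesis and organic osmolytes, 9 were in the test, and 4 rose and 3 fell from day -2 to day 3 in DMSO (30.5% of all entries called). With ML-792 against DMSO, 3 rose and 2 fell at day 1, 3 rose and 3 fell at day 3, and 2 rose and 3 fell at day 7, where 6.55%, 12.9% and 9.6% of all entries were called, with list medians of 0.51, 0.46 and -0.35 against 0.00, 0.021 and 0.0011 for all entries. Cdo1, which oxidises cysteine in the first step towards taurine, was at 30862 ± 2531 with ML-792 and 8934 ± 288 in DMSO at day 3 (1.79 ± 0.14, adjusted p = 3e-09), without overlap. Labelled Cdo1 was higher as well at day 3 (1.49 ± 0.38, adjusted p = 0.045). Csad, the decarboxylase of the next step, was lower at day 1 (-1.02 ± 0.20, adjusted p = 0.0025), at day 3 with overlapping libraries (-0.55 ± 0.20, adjusted p = 0.096) and on day 7 (-0.65 ± 0.20, adjusted p = 0.054). Fmo1, which oxidises hypotaurine to taurine, rose at all 3 days and most at day 3, from 78.5 ± 13.6 to 1509 ± 269 (4.26 ± 0.33, adjusted p = 2.6e-09). Slc5a3, the carrier of the osmolyte myo-inositol, rose at day 3 (1.58 ± 0.23, adjusted p = 3.3e-05), and Lrrc8a, a subunit of the volume-regulated anion channel through which taurine leaves cells, fell at all 3 days (-0.67, -0.67 and -0.80).

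Slc7a5, the leucine exchanger, dipped at day 1, rose to its highest level at day 3 in DMSO and reached that level at no day with ML-792. Its libraries held 589, 624 and 724 normalised reads in DMSO and 772, 579.8 and 539.7 with ML-792 before induction. One day after induction they held 205, 204 and 172 in DMSO and 138, 95.4 and 139.8 with ML-792. The day 3 libraries held 1445, 1401 and 1545 in DMSO and 508, 333 and 353 with ML-792, and those of day 7 held 1125, 461 and 1175 and 443, 323 and 333, in the same order. All ML-792 libraries of days 1 and 3 lay below all DMSO libraries of those days, and so did those of day 7, where DMSO replicate B was far below A and C.

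In DMSO, Slc7a5 fell at day 1 (-1.74 ± 0.27, adjusted p = 0.00024) and then rose 7.56-fold from day 1 to day 3 (adjusted p = 1.4e-06), to a level above that of day -2 (1.18 ± 0.26, adjusted p = 0.0019). Without replicate A the adjusted p of these day -2 comparisons was 0.014 at day 1 and 0.048 at day 3, and without C it was 0.014 and 0.019. Day 7 did not pass against day -2 (0.51 ± 0.26, adjusted p = 0.13), but did without replicate B (0.81, adjusted p = 0.00049). Against DMSO, the level with ML-792 was 3.67-fold lower at day 3 (-1.88 ± 0.26, adjusted p = 1.7e-05) and 2.51-fold at day 7 (-1.33 ± 0.26, adjusted p = 0.0014; 0.19 without replicate C). The day 1 difference, -0.63 ± 0.26, did not pass (adjusted p = 0.23), and neither did day -2 (-0.035 ± 0.25, adjusted p = 1). In the ML-792 course, Slc7a5 fell at day 1 (-2.34 ± 0.23, adjusted p = 5.4e-06) and on day 7 (-0.78 ± 0.22, adjusted p = 0.0096, but 0.036 without replicate A and 0.069 without C). Few labelled reads backed these values: the ML-792 libraries of day 1 held 3, 1 and 0 labelled reads, which was 0.0480 times the ML-792 level of day -2 (95% counting interval 0.0129 to 0.126), and 0.395 times the DMSO level of day 1 (0.0929 to 1.30). These ratios are not set against the median of all entries. Relative to that median, the fitted labelled log2 change from day -2 to day 1 with ML-792 was -2.84.

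Slc3a2, the partner of Slc7a5, was at a lower level with ML-792 than in DMSO in each of replicates A, B and C at days 3 and 7, but its replicates lay far apart. Replicates A, B and C held 7813, 2063 and 10427 normalised reads in DMSO and 9227, 3327 and 8696 with ML-792 before induction. At day 1 they held 6652, 1714 and 6913 in DMSO and 6662, 1721 and 7692 with ML-792. Levels at day 3 were 13536, 4487 and 16882 in DMSO and 7719, 2269.5 and 8420.1 with ML-792, and those at day 7 were 12155, 5716 and 14712 and 7462, 2216 and 7648, in the same order. Replicate B was the lowest in every condition, so the groups overlapped in every comparison of ML-792 with DMSO. With all replicates and the filter on low counts, no comparison of total reads was called: the ML-792 difference was -0.92 ± 0.71 at day 3 (adjusted p = 0.55), that of day 7 was -0.91 ± 0.71 (adjusted p = 0.57), and the change from day -2 to day 3 in DMSO was 0.78 ± 0.60 (adjusted p = 0.32).

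Without replicate B the same differences kept their size and passed: on day 3 -0.91 (adjusted p = 0.00016) and on day 7 -0.83 (adjusted p = 0.00074) for ML-792 against DMSO, and 0.74 (adjusted p = 0.002) for day 3 against day -2 in DMSO. With all replicates both ML-792 differences also passed with the letters as a block (adjusted p = 2.3e-05 on day 3 and 9.5e-06 on day 7) and with no filter on low counts (0.00016 and 0.00031). Set letter by letter, as a description since the letters were not taken as pairs, Slc3a2 with ML-792 was 1.18, 1.61 and 0.834 times its DMSO level at day -2, 1.00, 1.00 and 1.11 times at day 1, 0.570, 0.506 and 0.499 times at day 3 and 0.614, 0.388 and 0.520 times at day 7.

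**Figure D3:**
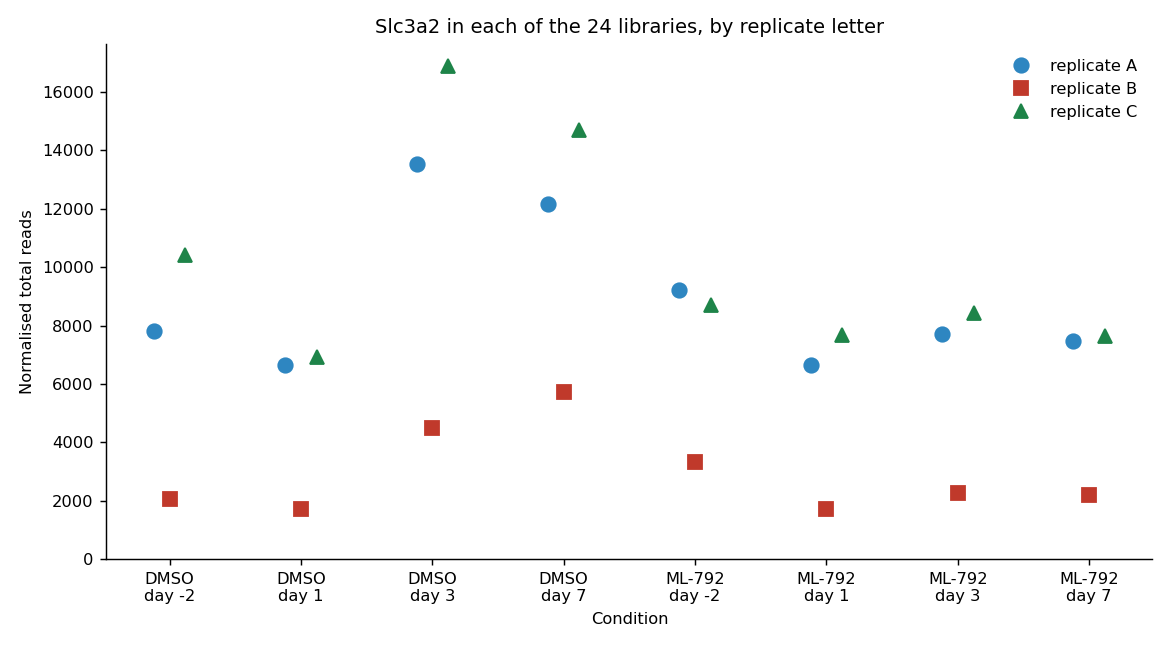
Slc3a2 total reads by replicate letter. The x axis gives the 8 conditions, the y axis the level in normalised reads from 0, and each point is 1 library, with a colour and shape per letter. Replicate B lay below A and C in every condition, at 0.226 to 0.425 times their mean.

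Slc7a1, the arginine and lysine carrier, also fell at day 1 and rose to day 3 in DMSO, and was lower with ML-792 at days 3 and 7. The level was 1856, 1204 and 1464 normalised reads in DMSO and 1569, 1454 and 1354 with ML-792 before induction. Day 1 libraries had 601, 543 and 497 in DMSO and 677, 680.5 and 688 with ML-792. At day 3 the libraries held 2360.3, 1933 and 2032 in DMSO and 1182, 1098 and 1045 with ML-792, and the last ones, of day 7, held 1353, 1214 and 1283 and 953, 861 and 785, in the same order. The ML-792 libraries lay above all DMSO libraries at day 1 and below all of them at days 3 and 7. In DMSO, Slc7a1 fell at day 1 (-1.46 ± 0.18, adjusted p = 2.8e-05) and rose 3.85-fold from day 1 to day 3 (adjusted p = 1e-06). Its day 3 level was 0.48 ± 0.18 from that of day -2 (adjusted p = 0.038, not called), and day 7 was -0.23 ± 0.18 (adjusted p = 0.31, not called).

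Against DMSO, Slc7a1 was lower with ML-792 at day 3 (-0.93 ± 0.15, 1.90-fold, adjusted p = 9.8e-05) and on day 7 (-0.57 ± 0.15, adjusted p = 0.017). The day 7 call was lost without replicate A (adjusted p = 0.15), without C (0.36) and with no low-count filter (0.13). At day 1 the value was 0.32 ± 0.15 (adjusted p = 0.3) and was not called. Over the ML-792 course Slc7a1 fell at day 1 (-1.10 ± 0.13, adjusted p = 1.8e-05) and day 7 (-0.75 ± 0.12, adjusted p = 0.0002). Its labelled reads fell at days 1, 3 and 7 in DMSO, and relative to the median of all entries they stood at -2.31, -0.63 and -1.41. Scaled by labelled reads, the day 3 value of DMSO was -0.87 and was not called (adjusted p = 0.1).

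The courses of the sodium-coupled carriers Slc38a1 and Slc38a2, both on chromosome 15, were unlike each other. Slc38a1 was a low gene outside day -2. Its libraries stood at 250.4, 225 and 253 normalised reads in DMSO and 283, 223 and 219 with ML-792 before induction. At day 1 they stood at 92.0, 55.6 and 43.7 in DMSO and 40.7, 59.3 and 65.3 with ML-792. Day 3 brought 8.75, 18.5 and 9.26 in DMSO and 13.0, 25.3 and 6.09 with ML-792, and day 7 brought 19.2, 17.7 and 33.1 and 7.15, 10.3 and 6.83, in the same order. Every later library lay below every day -2 library of its treatment. Slc38a1 fell at day 1 in DMSO (-1.93 ± 0.35, adjusted p = 0.00077; 0.013 without replicate A and 0.022 without C), at day 3 (-4.31 ± 0.41, adjusted p = 5.5e-07) and on day 7 (-3.38 ± 0.38, adjusted p = 2.9e-06). With ML-792 the changes were -2.13, -4.03 and -4.88 at the same days, all called, with a day 1 adjusted p of 0.00035 (0.043 without replicate A). Its means spanned 30.0-fold, the widest range of the 8 genes. Against DMSO it was lower at day 7 (-1.51 ± 0.46, adjusted p = 0.05), a call that rested on 6, 8 and 5 reads against 17, 17 and 29 and was lost without replicate A (adjusted p = 0.29), without C (0.46) and with the 6 libraries of that day alone (0.19). Labelled reads of Slc38a1 were seen only at day -2, at 5, 15 and 2 reads in DMSO and 11, 4 and 1 with ML-792. Against a floor of 3 reads per library, the mean at day -2 was at least 2.42-fold above that of day 1 in DMSO and 1.40-fold with ML-792. These bounds did not hold in each library, since replicate C of DMSO at day -2 lay under the floor (1.78 against 2.66 normalised reads). The median labelled log2 change of all entries at day 1 was -1.27 in DMSO and -1.41 with ML-792. Set against it, the bounds do not show a fall particular to Slc38a1.

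Slc38a2 was the steadiest of the 8 over the conditions, with means that spanned 1.63-fold. The libraries held 4473, 6059.8 and 4767 normalised reads in DMSO and 4676, 5045 and 4585 with ML-792 before induction. One day into induction they held 3543, 4768 and 3815 in DMSO and 5379, 5417 and 6399 with ML-792. On day 3 the values were 5849.8, 7665 and 5464 in DMSO and 4727, 6315 and 5602 with ML-792, and on day 7 they were 5367, 7231 and 5719 and 4014, 4016 and 3589, in the same order. The ML-792 libraries lay above the DMSO libraries at day 1 and below them at day 7, and overlapped them at the other days. The lower level at day 7 was called (-0.66 ± 0.17, adjusted p = 0.016), but not without replicate A (adjusted p = 0.15) or C (0.25). At day 1 the value was 0.50 ± 0.17 and just missed the threshold (adjusted p = 0.1). That higher level passed with all libraries under DESeq2 (adjusted p = 0.035), with one entry per gene (0.081) and with the replicate block (0.0034), and also without replicate B (0.68, adjusted p = 0.0013). No change from day -2 was called in total reads in either treatment. Labelled Slc38a2 fell at days 1, 3 and 7 of both courses when scaled by total reads, whereas relative to the median of all entries its DMSO values were -0.56, 0.47 and -0.47, and scaled by labelled reads none of the 6 was called and that of DMSO day 3 turned to 0.22.

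Slc1a5, the glutamine exchanger, rose more than any other of the 8 genes during differentiation. The replicates had 1319.7, 1044 and 1348 normalised reads in DMSO and 1134, 839 and 1229.6 with ML-792 before induction. Day 1 values were 2160, 2269 and 2255 in DMSO and 1244, 972 and 1453 with ML-792. By day 3 the level had reached 11608, 10779 and 13647 in DMSO and 13784, 10665 and 14475 with ML-792, and by day 7 it was 12514, 12477 and 13441 and 15738, 11739 and 13997, in the same order. All libraries of days 3 and 7 lay far above those of days -2 and 1 in both treatments. In DMSO the rise was 1.80-fold at day 1 (0.85 ± 0.16, adjusted p = 0.0012; 0.065 without replicate A and 0.026 without C), 9.71-fold at day 3 (3.28 ± 0.17, adjusted p = 1.1e-09) and 10.4-fold at day 7 (3.37 ± 0.18, adjusted p = 7.3e-10). With ML-792 it was not called at day 1 (0.20 ± 0.20, adjusted p = 0.49) and rose 12.2-fold at day 3 and 12.9-fold at day 7 (adjusted p = 1.5e-08 and 1e-08).

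At day 1 all ML-792 libraries of Slc1a5 lay below all DMSO libraries. The difference was 1.82-fold (-0.86 ± 0.18, adjusted p = 0.0029), and 0.17 was the adjusted p without replicate A. By day 3 the groups overlapped (0.11 ± 0.17, adjusted p = 0.82), and at day 7 they still did (0.11 ± 0.17, adjusted p = 0.82). Labelled libraries at day 1 held 15.6, 47.4 and 31.3 in DMSO and 11.8, 5.82 and 14.0 with ML-792, which was called (-1.55 ± 0.43, adjusted p = 0.079). That call was lost without any 1 replicate (adjusted p = 0.18 without A, 0.56 without B and 0.27 without C). Labelled Slc1a5 was the only one of the 7 tested genes that rose from day -2, with values relative to the median of all entries of 4.04 at day 3 and 4.10 at day 7 in DMSO. Scaled by total reads, its labelled reads rose 5.06-fold and 5.93-fold at these days, less than its total reads (9.71-fold and 10.4-fold), while the labelled share of all reads fell. The labelled share of its reads was 1.96 ± 0.44% at day -2, below the 3.17% of all reads. At days 3 and 7 it was 1.04 ± 0.037% and 1.14 ± 0.18%, beside 1.03% of all reads at both days.

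Slc1a4, the close relative of Slc1a5, took a different course: it fell at day 1 and was back near its starting level at day 7 in DMSO. Normalised levels were 892, 699 and 888 in DMSO and 1044, 653 and 875 with ML-792 before induction. On day 1 they were 275, 283 and 279 in DMSO and 201, 144 and 165 with ML-792. Its day 3 level was 367, 313 and 434 in DMSO and 184, 113 and 145 with ML-792, and its day 7 level 821, 894 and 988 and 556, 371 and 586, in the same order. At days 1, 3 and 7 every ML-792 library lay below every DMSO library. In DMSO, Slc1a4 fell at day 1 (-1.57 ± 0.18, adjusted p = 1.3e-05) and on day 3 (-1.15 ± 0.18, adjusted p = 7.5e-05; 0.017 without replicate A), and it rose from day 3 to day 7 (1.28 ± 0.18, adjusted p = 0.00014; 0.023 without A).

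Against DMSO, Slc1a4 with ML-792 was 1.64-fold lower at day 1 (-0.71 ± 0.21, adjusted p = 0.052), 2.52-fold at day 3 (-1.33 ± 0.21, adjusted p = 0.00012) and 1.79-fold in day 7 libraries (-0.84 ± 0.21, adjusted p = 0.012). The day 1 call was lost without replicate A (adjusted p = 0.23), without C (0.39) and with the 6 libraries of the day alone (0.12). The day 7 call was lost without A (0.11) and without C (0.19). No labelled read of Slc1a4 was counted in the 3 ML-792 libraries of day 1, and against a floor of 3 reads per library their level was at least 5.06-fold below that of ML-792 at day -2, where 63 labelled reads were counted. The median labelled log2 change of all entries between these days was -1.41, and the bound is not corrected for it. The DMSO libraries of day 1 held only 3, 0 and 5 labelled reads. Their mean of 2.29 normalised reads lay under that floor, at 3.17, so the treatments could not be told apart in labelled reads at day 1.

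**Figure D4:**
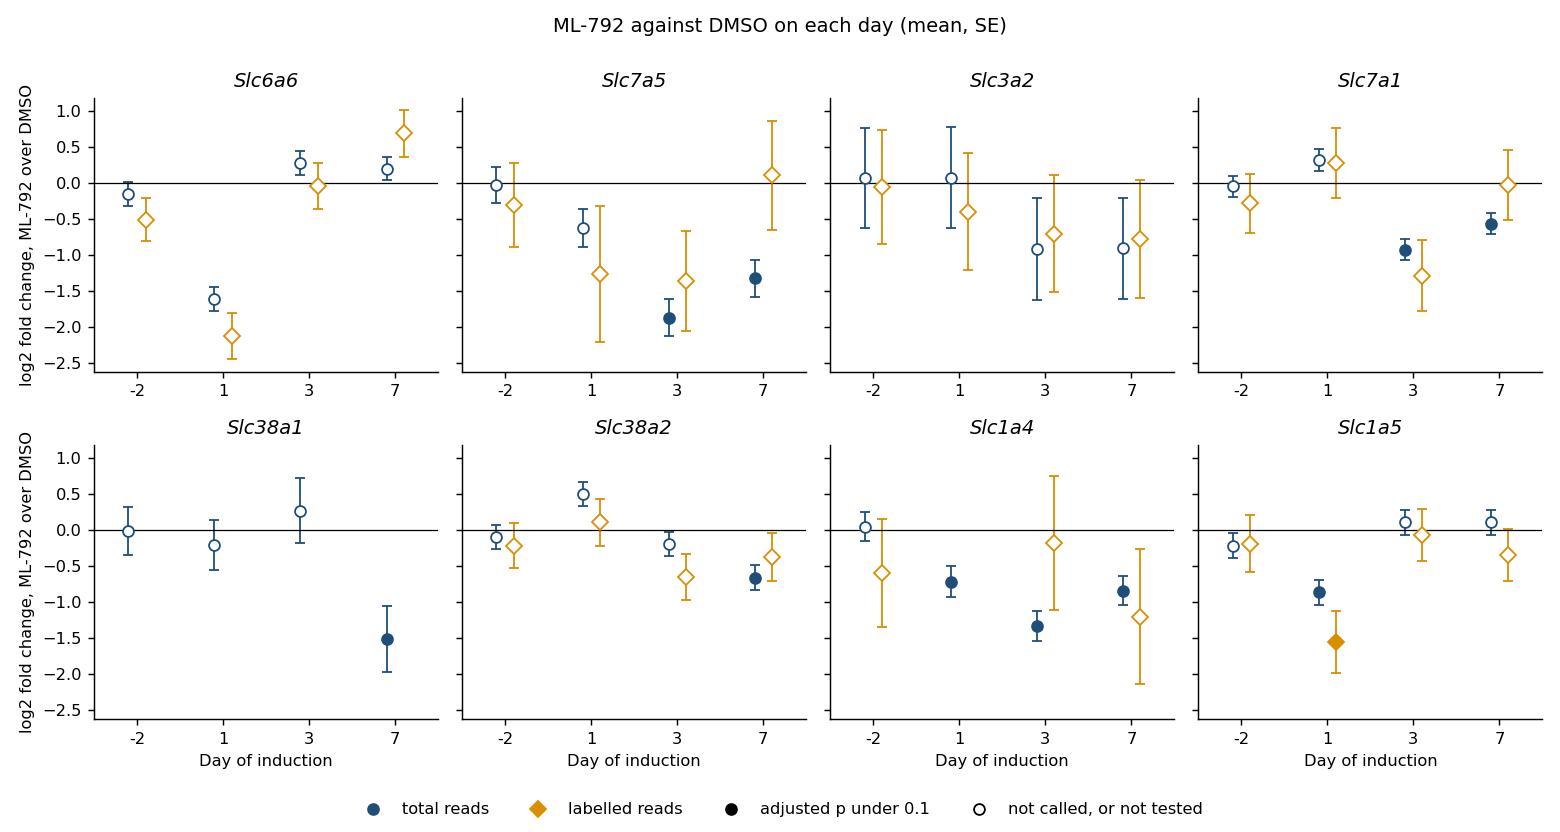
Log2 fold change of ML-792 against DMSO for the 8 genes at days -2, 1, 3 and 7, in total and labelled reads. The x axis gives the day and the y axis the log2 fold change, with fitted values as points (blue circles total, yellow diamonds labelled), bars of 1 SE to each side and filled points for called genes. The day 1 points of Slc6a6 are a description, since they chose the group, and labelled Slc1a4 at day 1 is left out for want of labelled reads with ML-792. In total reads the called values lie between -1.88 (Slc7a5, day 3) and -0.57 (Slc7a1, day 7), all below 0.

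Set together, the members called for ML-792 by edgeR as described above were all lower than in DMSO, but this did not hold in every setting. At day 1, Slc38a2 was called higher under the 4 settings given for it, and Slc7a1 was called higher with the replicate block (0.32, adjusted p = 0.071), and labelled Slc6a6 was called higher at day 7 when scaled by labelled reads (1.05, adjusted p = 0.089). No member was called at day -2, where edgeR called 0% of all entries (348 of 26563 had an unadjusted p under 0.05, and DESeq2 also called 0, and 0 of the 8 members had such a p). At day 1, 2 of the 7 members other than Slc6a6 were called, Slc1a5 and Slc1a4, both lower, against 6.55% of all entries called and 3.51% called lower. At day 3, 3 of 8 were lower, Slc7a5, Slc1a4 and Slc7a1, against 12.9% called and 5.99% called lower. At day 7, 5 of 8 were lower, Slc7a5, Slc38a1, Slc1a4, Slc38a2 and Slc7a1, against 9.6% called and 4.6% called lower. The member medians were -0.21, -0.56 and -0.75 at days 1, 3 and 7, beside medians of 0.00, 0.021 and 0.0011 over all entries. The 3 genes of day 3 were called in every setting tried. The day 1 count was 0 without replicate A and 1 without C, and the day 7 count was 1 without A and 0 without C. The share of all entries called without a replicate is not given, here or below, so such counts are not set against a background.

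The effect of ML-792 differed between days for 5 of the 7 members tested (interaction of day and treatment in total reads, 9.66% of all entries called). The adjusted p was 0.0011 for Slc7a1, 0.0059 for Slc7a5, 0.017 for Slc38a2, 0.021 for Slc1a4 and 0.031 for Slc1a5. Slc38a1 (0.28) and Slc3a2 (0.89) did not pass. Of the single days, Slc1a5 was called at day 1 alone, Slc7a1 and Slc7a5 at days 3 and 7, Slc38a2 at day 7 alone and Slc1a4 at days 1, 3 and 7. Without replicate A 1 of the 7 passed, and without C none did. In labelled reads, 1 of 6 members was called at day 1 (Slc1a5, lower), and edgeR called none at days -2, 3 and 7, where 0, 1 and 1 of 7 had an unadjusted p under 0.05 and DESeq2 also called 0. The shares of all entries called were 0% at day -2 (75 of 10589 had an unadjusted p under 0.05, and DESeq2 also called 0), 0.888% at day 1, 0.916% at day 3 and 0.869% at day 7. For the labelled interaction edgeR called 0.246% of all entries and 0 of 6 members, of which 0 had an unadjusted p under 0.05, and DESeq2 called 0 of them.

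Over the DMSO course, 1 of the 7 members other than Slc6a6 rose and 4 fell at day 1 in total reads, and of all 8, 2 rose and 3 fell at day 3, and 1 rose and 2 fell at day 7, against 13.7%, 30.5% and 32.6% of all entries called. Without replicate A, 2, 3 and 3 members were called at those days, and without C, 2, 4 and 3. From day 1 to day 3, 3 of the 7 rose and 1 fell (18.9% of all entries), and from day 3 to day 7, 1 rose (8.77%; Slc1a4, with 0 called without replicate A and 2 without B). With ML-792, 4 of the 7 fell at day 1 (20%), and of all 8, 1 rose and 3 fell at day 3 (34.7%), and 1 rose and 4 fell at day 7 (34.8%), or 3 in all without replicate A. The comparisons with day -2 share their day -2 libraries. In labelled reads, 4 of the 6 tested members other than Slc6a6 fell at day 1 of the DMSO course (1 without replicate A), and of the 7 tested with Slc6a6, 1 rose and 3 fell at day 3, and 1 rose and 4 fell at day 7, against 19.7%, 34.4% and 30.2% of all entries. From day 1 to day 3, labelled Slc1a5 was the 1 called of the 6 and rose (3%), and it missed the threshold without replicate A (adjusted p = 0.067) and without C (0.053). In labelled reads edgeR called none from day 3 to day 7 (0.236% of all entries), where 2 of 7 had an unadjusted p under 0.05 and DESeq2 called 0. With ML-792, labelled calls were 4 of the 6 lower at day 1 (26.9%), and, Slc6a6 included, 1 higher and 4 lower at day 3 (35.1%) and 1 higher and 4 lower at day 7 (39.4%). Scaled by labelled reads in place of total reads, the labelled calls at days 1, 3 and 7 were 1 higher and 1 lower, 1 higher and 1 lower, and 1 higher and 2 lower in DMSO, and 0 higher and 1 lower, 1 higher and 2 lower, and 1 higher and 1 lower with ML-792 (day 1 without Slc6a6), where the gene called higher was Slc1a5 and those called lower were Slc6a6 or Slc7a1. Fewer of all entries were called too under that scaling, 513, 1181 and 1086 in DMSO in place of 2082, 3644 and 3193. With ML-792 they were 621, 1241 and 1227 in place of 2851, 3721 and 4172.

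**Figure D5:**
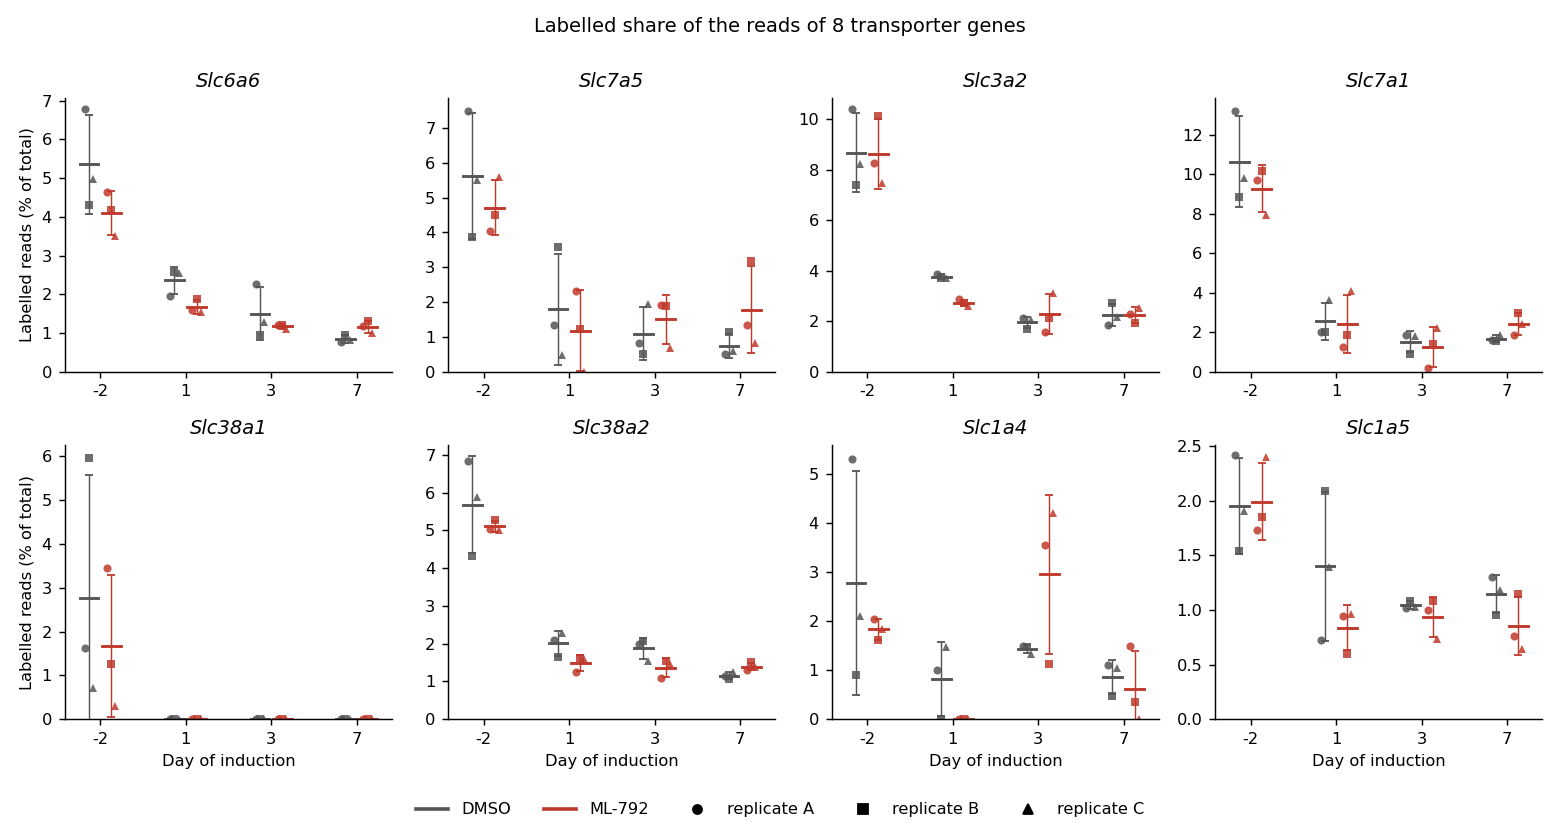
Labelled share of each gene's reads, in percent, by day. The x axis gives the day, the y axis the share from 0, with single libraries as points (grey DMSO, red ML-792, shapes for replicates) and the mean and SD of 3 as bars. The share of Slc6a6 had means of 5.35% at day -2 and 0.843% at day 7 in DMSO.

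Genes of the amino acid response fell at day 1 of the DMSO course, rose to day 3, and were lower with ML-792 at days 3 and 7. All 18 genes of that list were in the test: in DMSO, 2 rose and 11 fell at day 1 (median -1.09, all entries -0.013), and 12 rose and 0 fell from day 1 to day 3 (median 1.25, all entries -0.032), where 13.7% and 18.9% of all entries were called. With ML-792 against DMSO, 1 rose at day 1 (6.55% of all entries called), 12 fell at day 3 (median -0.80) and 13 fell at day 7 (median -0.68), against 5.99% and 4.6% of all entries called lower. Trib3, a pseudokinase induced by ATF4, was at 737 ± 162 with ML-792 and 5795 ± 739 in DMSO at day 7 (-2.98 ± 0.21, adjusted p = 2.2e-09), and its labelled reads were lower as well (-2.92 ± 0.48, adjusted p = 0.00055). Chac1, which degrades glutathione, was at 387 ± 156 and 1468 ± 439 at day 3 (-1.92 ± 0.37, adjusted p = 0.0011), and the transcription factor gene Atf3 at 32.2 ± 12.2 and 114 ± 7.79 (-1.81 ± 0.38, adjusted p = 0.0023). Phgdh, the first enzyme of serine synthesis, had few reads, at a level of 1.54 ± 1.34 with ML-792 and 9.95 ± 5.35 in DMSO at day 3, and no fold change is given for it. Of the 20 genes that report amino acids to the kinase complex mTORC1, 16 were in the test. With ML-792 against DMSO, 0 of them were called at days 1 and 3, against 6.55% and 12.9% of all entries. At day 7, 2 rose, Sesn1 (1.28 ± 0.24) and Sesn3 (0.85 ± 0.17), and 0 fell, against 9.6% of all entries called. The list median at day 7 was 0.029, beside 0.0011 for all entries.

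ATF4 binds composite sites that the letters TGATGNAAN describe. In RefSeq promoter windows of 250 bases before to 50 bases after the start site (GRCm38.p6, both strands), 3.95% of 32851 windows held this string. Of the members, Slc7a1, Slc38a2, Slc3a2 and Slc1a4 had windows, and that of Slc1a4 held it, across its start site (bases -5 to 3). Of the 18 amino acid response genes, 8 held it: Aars, Asns, Atf3, Chac1, Gars, Nupr1, Trib3 and Vldlr. The site of Slc1a4 is shown beside those of 3 list genes named above, all of them lower with ML-792 at day 3, in 30 bases each with the string in capitals, read on the plus strand for Slc1a4 (chr11:20332699-20332728, gene on the minus strand), Trib3 (chr2:152344028-152344057) and Atf3 (chr1:191183425-191183454) and on the minus strand for Chac1 (chr2:119351038-119351067).
Slc1a4: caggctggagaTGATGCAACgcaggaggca
Trib3: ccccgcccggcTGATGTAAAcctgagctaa
Atf3: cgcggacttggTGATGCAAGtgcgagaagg
Chac1: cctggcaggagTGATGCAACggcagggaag
These are matches of letters, and binding at them was not measured in the libraries used here.

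Other carriers of the plasma membrane were changed by ML-792 in both directions. Of 26 further amino acid transporter genes, 17 were in the test. In DMSO, 3 rose and 7 fell at day 1, 5 rose and 6 fell at day 3, and 2 rose and 5 fell at day 7, against 13.7%, 30.5% and 32.6% of all entries called. With ML-792 against DMSO, 4 rose at day 1 (median 0.53), 2 rose and 3 fell at day 3, and 3 rose and 2 fell at day 7, against 6.55%, 12.9% and 9.6%. Slc1a3, a glutamate carrier, rose at day 1 from 1529 ± 88.3 to 3079 ± 275 (1.01 ± 0.15, adjusted p = 0.0001), and Slc38a4, a further member of the Slc38 family, rose at day 1 (1.52 ± 0.24, adjusted p = 0.0002) and day 3 (1.68 ± 0.25, adjusted p = 5.1e-05). The second arginine carrier Slc7a2 was higher at day 1 (1.38 ± 0.42, adjusted p = 0.058), when Slc7a1 was not called. At day 3, when Slc7a1 was lower, Slc7a2 was at 93.3 ± 8.56 against 9.27 ± 9.05 (3.30 ± 0.48, adjusted p = 3.8e-05). At day 7, when Slc7a1 was lower too, Slc7a2 was not called. Slc7a11, the cystine exchanger that also pairs with Slc3a2, was lower at day 3 (-1.94 ± 0.40, adjusted p = 0.0017) and day 7 (-1.25 ± 0.41, adjusted p = 0.075), and so was the glycine carrier Slc6a9 (-1.40 ± 0.30 and -1.25 ± 0.29, adjusted p = 0.0027 and 0.0083).

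The genes whose total reads ran most like Slc6a6 over the 24 libraries, among 13330 genes compared, were Matn2, a matrix protein (Pearson r = 0.910), Eid1 (0.899), Snx24 (0.894) and Igf1, the growth factor (0.883). The points share their libraries and depth, and the day 1 difference that chose Slc6a6 is part of the likeness. All 4 were at lower mean levels with ML-792 than in DMSO at day 1, such as Igf1 at 469 against 1754 normalised reads and Matn2 at 740.0 against 1863. The other members were not near the top of that order: Slc38a1 came at place 663 (r = 0.694), Slc1a4 at 3571 (0.383) and Slc7a5 at 7085 (-0.046), and Slc1a5 at 11833 had r = -0.56. The order depended on the measure. By Spearman correlation Matn2 came at place 12.5, Snx24 at 18, Eid1 at 239 and Igf1 at 366. By Pearson correlation of the 8 condition means they came at 10, 16, 18 and 19.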

How the data were processed

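Total RNA from 24 cultures of 3T3-L1 cells was labelled with 4-thiouridine, base-converted and sequenced from the 3′ end (QuantSeq), as 50 base single reads demultiplexed with bcl2fastq 2.17.1.14. The authors counted reads per RefSeq 3′UTR on mm10 with SlamDunk and deposited whole-number counts of total reads and of reads with at least 1 T-to-C conversion. No control library without 4-thiouridine was used here. Of the library columns, 6 per readout matched no sample and were not used. The counts came as deposited to edgeR 4.0.16 (R 4.3.3, limma 3.58.1): entries were kept by a minimum count of 10 and minimum total of 15, TMM factors of total reads scaled both readouts, and glmQLFit (robust) with glmQLFTest was fitted to all entries, within a treatment for time courses and over all 24 libraries for ML-792 against DMSO. Groups came from the sample titles. Replicates A, B and C are biological replicates per the study. Alternatives were DESeq2 1.42.0, other filters, one entry per gene, scaling by labelled reads, a replicate block, single days and leaving out each replicate. The script was tested on simulated counts. The 8 genes, the gene lists and the thresholds were chosen with earlier results of these data known. List genes were named by the 4 largest called fold changes of a comparison without overlap between groups, or fewer. Total depth was 13554718 to 27013352 reads per library. Labelled depth was 115709 to 820046 reads per library. Counting intervals and floors cover counting error only, since the protocol names no molecular identifiers.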

Additional observations from a re-analysis of the deposited data

Results flagged for a closer look

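The effect of ML-792 on total reads differed between days for 5 genes, by edgeR's test of the 3 interaction terms with Benjamini-Hochberg adjustment. The adjusted p was 0.0011 for Slc7a1, with fold changes of -0.048, 0.32, -0.93 and -0.57 (log2) at days -2, 1, 3 and 7. It was 0.0059 for Slc7a5, with -0.035, -0.63, -1.88 and -1.33. It was 0.017 for Slc38a2, with -0.10, 0.50, -0.19 and -0.66, and 0.031 for Slc1a5, with -0.21, -0.86, 0.11 and 0.11. It was 0.021 for Slc1a4, with 0.052, -0.71, -1.33 and -0.84. Without replicate A 1 of these passed (Slc7a1), and without replicate C none did.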

How the results depend on the processing

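Counts of called members moved by over 1.5 times under these alternatives. From day 3 to day 7 in DMSO, 1 gene (Slc1a4) became 2 under DESeq2, with one entry per gene, with the replicate block and with all 24 libraries in the fit. For ML-792 against DMSO at day 1, 2 genes became 5 with the replicate block, where Slc38a2 (0.52, adjusted p = 0.0034) and Slc7a1 (0.32, adjusted p = 0.071) were higher with ML-792 and Slc7a5 was lower (-0.65, adjusted p = 0.071), and 1 with the 6 libraries of the day. The replicate block also gave 1 labelled gene at day 7 in place of 0 (Slc3a2). Labelled counts scaled by labelled reads gave 2 genes in place of 4, 2 of 4 and 3 of 5 at days 1, 3 and 7 in DMSO, 1 in place of 4 and 3 and 2 in place of 5 with ML-792, 0 in place of 1 for ML-792 against DMSO at day 1, and 1 (Slc6a6, adjusted p = 0.089) in place of 0 at day 7. Slc1a4 was not in that test, and labelled Slc38a2 at day 3 in DMSO turned from -1.23 to 0.22 (adjusted p = 0.67). Of all entries, that scaling called 81 in place of 94 at day 1 and 110 in place of 92 at day 7 for ML-792 against DMSO. It also called fewer of all entries over the time courses, as given above. The 1 labelled gene at day 1 was lost (0) with at least 10 reads over the libraries, with no filter and with the 6 libraries of the day. Leaving out each replicate, total counts ran from 2 to 5 and 3 to 6 at days 1 and 3 in DMSO, 0 to 2 from day 3 to 7, 3 to 6 at day 7 with ML-792, 0 to 3 and 0 to 6 for ML-792 against DMSO at days 1 and 7, and 0 to 6 for the interaction. Labelled counts ran from 1 to 5 at day 1 and 0 to 2 from day 1 to 3 in DMSO, and were 0 in all for ML-792 against DMSO at day 1. The causes of these moves were not tested, except that a left-out replicate leaves 2 libraries a group. The share of all entries called with 2 libraries a group is not given, so these counts are not set against it. With the replicate block, Slc3a2 passed for ML-792 against DMSO at day 3 (-0.93, adjusted p = 2.3e-05) and day 7 (-1.03, adjusted p = 9.5e-06), as it did with no filter on low counts (adjusted p = 0.00016 and 0.00031). The sample titles do not say what the letters mark, so the letters were not taken to pair the samples. In total reads 70 of 84 same-letter pairs deviated together (r over 0.1, mean 0.213) and 24 of 168 different-letter pairs did (mean -0.104). In labelled reads 23 of 84 and 0 of 168 did. Samples of a letter thus deviated together more often than others, and the main test leaves this shared deviation in its spread. Members called at day 3 for ML-792 against DMSO were 3 or 4 in every setting. Low labelled depth limits Slc38a1, Slc1a4 and Slc7a5.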
